A study of Mus musculus with 6 samples.

Results

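The genes described here encode the proteins of the mitochondrial ribosome (MRP genes). They were taken as every RefSeq-named row whose symbol begins with Mrpl or Mrps followed by a number, which gave 76 of 23473 such rows. RNA was sequenced from tumor endothelial cells (TECs) of Lewis lung carcinoma (LLC) tumors, which arise after injection of a mouse lung cancer line under the skin, in C57BL/6 mice aged 8 weeks. In the 3 NICeCA mice, a Cdh5-driven, tamoxifen-inducible Cre recombinase removed a stop cassette in the Rosa26 locus and switched on Notch1's intracellular domain wherever the Cdh5 promoter is active, mainly endothelium. Tamoxifen was given at 100 mg/kg on each of 5 days, and the methods state no separate course for the controls. The 3 control (Ctrl) mice are labelled wild type, without a statement on Cre. The cells were captured on CD31-coated beads, and the comparison asks how constant Notch signaling in the endothelium changes the RNA of TECs.

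Mitochondria carry their own small genome, whose messenger RNAs encode core subunits of the respiratory chain. They are translated by a dedicated ribosome with a large subunit, which forms peptide bonds, and a small subunit, which decodes the message. The ribosomal RNAs are made inside the organelle, whereas every protein of this ribosome is encoded in the nucleus, made in the cytosol and imported. Some of these proteins descend from bacterial ribosomal proteins and others are found only in mitochondria. The symbols Mrpl and Mrps stand for the large and the small subunit. There are exceptions: Mrps18a and Mrps30 are now placed in the large subunit, and Mrps36 is now known as a component of the alpha-ketoglutarate dehydrogenase complex. By present assignment the 76 genes were 49 of the large subunit, 26 of the small subunit and Mrps36.

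The 6 libraries held between 27793302 and 30769916 reads on RefSeq rows, of which 47607 to 58314 (0.160% to 0.197%) fell on the 76 genes. All values are RPKM, read numbers divided by row length and by the read total of the library. The Notch1 row, to which transgene reads may map, lay between 8.19 and 14.3 RPKM in Ctrl and between 12.3 and 13.6 in NICeCA libraries. The captured cells were mixed by their markers. Calls among the markers stand beside those of all tested genes, of which 5.88% were called higher and 7.68% lower. The summed level of 20 endothelial markers was 436 to 1080 RPKM in Ctrl and 916 to 1147 in NICeCA libraries, with no marker at 0 throughout and 3 called higher. All 20 had a positive log2 fold change, with a median of 0.66. The summed level of 13 macrophage markers was larger, at 7183 to 10138 and 5587 to 9560 RPKM. Of these 13, 4 were called higher, but 7 had a negative log2 fold change, and the median was -0.10. The 14 neutrophil markers summed to 280 to 493 RPKM in Ctrl and 1060 to 1935 in NICeCA libraries, and 8 of the 10 tested were called higher. Fibroblast markers summed to 342 to 572 against 170 to 341 RPKM. Most of that sum was Col3a1 (270 to 454 against 103 to 226 RPKM). The rest of the fibroblast list overlapped (71.6 to 118 against 64.2 to 115 RPKM). Of the 8 tested genes of the whole list, Col3a1 included, 3 were called lower and 1 higher. Pericyte and smooth muscle markers summed to 63.1 to 107 against 134 to 219 RPKM, and erythroid and platelet markers to 128 to 187 against 912 to 1134. The last sum was carried by the platelet gene Pf4 (102 to 172 against 889 to 1126 RPKM), and the rest of that list summed to 15.0 to 25.4 against 8.02 to 23 RPKM. Of the 5 tested genes of the whole list, Pf4 included, 3 were negative. T and NK lymphocyte markers (37.7 to 67.7 against 47.5 to 63.3 RPKM), epithelial markers (6.86 to 12.6 against 6.5 to 8.83) and proliferation genes (216 to 313 against 237 to 259) overlapped between the groups in their sums. Of the 15 proliferation genes, however, 14 had a negative log2 fold change, with a median of -0.27 (-0.22 after removal of the gene length trend). Among them 1 (6.67%) was called lower, against 7.68% of all tested genes. The part of these cell types in the results on MRP genes was not tested, and in bulk samples fewer cells of a type and less RNA per cell cannot be told apart.

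All 76 MRP genes were detected in every library and had a mean of at least 1 RPKM, so that none was lost to the filter, and 69 had a mean of at least 5 RPKM. RPKM divides by row length, so that levels can be set side by side between genes, but only roughly. A trend on row length that differs between the libraries remains, as described below. The highest was Mrpl52, a large subunit protein found only in mitochondria, with 77.6, 85.2 and 99.5 RPKM in Ctrl replicates 1 to 3 and 132, 116 and 115 RPKM in NICeCA replicates 1 to 3. Next came Mrpl33, with 60.3, 69.1 and 85.6 RPKM in Ctrl and 95.6, 108 and 88.7 RPKM in NICeCA libraries, and Mrps21, a small subunit protein with a bacterial counterpart, with 54.6, 58.9 and 56.1 against 84.4, 69.8 and 69.1 RPKM. In these 3 genes every NICeCA library lay above every Ctrl library. They are among the shortest rows, at 412, 466 and 407 bases.

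Mrpl20, Mrpl12 and Mrpl30, all large subunit proteins of bacterial descent, followed at means of 42.2, 34.7 and 34.7 RPKM over the 6 libraries, and Mrpl12 and Mrpl30 did not differ beyond the spread of the libraries. At the low end stood Mrpl47 (3.08 to 4.29 RPKM), Mrpl19 (2.96 to 4.59 RPKM), Mrpl35 (1.96 to 3.63 RPKM) and Mrpl1 (1.79 to 2.61 RPKM), again all of the large subunit. The ranges of Mrpl47 and Mrpl19 overlapped, as did those of Mrpl35 and Mrpl1. The proteins of a ribosome are present in about equal numbers, whereas the RNA levels of their genes thus spread widely, with a mean of 104 RPKM for Mrpl52 and 2.18 RPKM for Mrpl1. Rows of high level were short and rows of low level were mostly long, with Mrpl47 (872 bases) as an exception.

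Comparing NICeCA with Ctrl, 2 of the 76 MRP genes were called higher and 0 lower (limma on log2(RPKM + 1), Benjamini-Hochberg adjusted p under 0.05), or 2.63% and 0.00%. Over all 12320 tested genes 5.88% were called higher and 7.68% lower. At an unadjusted p under 0.05, 18 MRP genes were higher and 1 lower, against 14.4% and 21.1% of all tested genes. In 25 MRP genes (32.9%) all NICeCA libraries lay above all Ctrl libraries, which held for 16.5% of tested genes, and in 3 (3.95%) all lay below, against 24.4%. For tested rows of up to 975 bases these shares were 32.8% above and 6.16% below. They were 27.6% and 9.34% for rows of 976 to 1454 bases, and the median MRP row had 1053 bases. The log2 fold changes of the MRP genes were small, from -0.48 to 0.55, with 53 positive and 23 negative. Their median was 0.117, beside -0.050 over all tested genes. Calls of all genes were split differently by another scaling, with 55.6% of them higher after trimmed-mean scaling (a trimmed mean of log ratios between libraries) and 43.4% without it, and that scaling called 5 MRP genes higher.

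**Figure D1:**
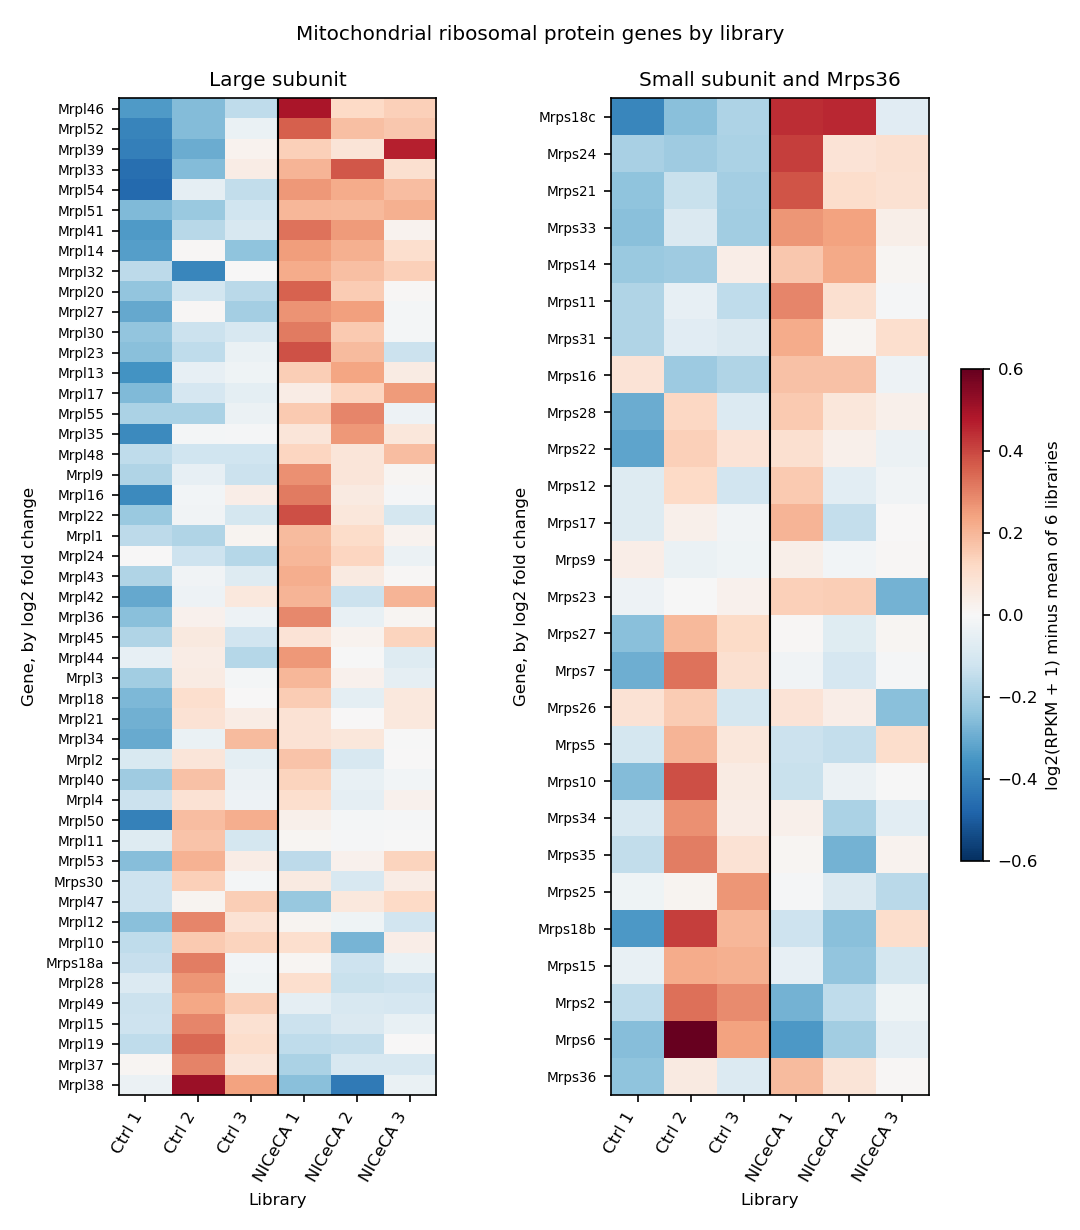
Heat map of the 76 genes (rows, by log2 fold change within each panel, Mrps36 last) in the 6 libraries (columns); color is log2(RPKM + 1) minus the mean of the gene over the 6 libraries, with the scale ending at -0.6 and 0.6. Ctrl replicate 1 is blue for most genes, and most genes with a negative log2 fold change have their highest value in Ctrl replicate 2.

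Both called genes belong to the large subunit and have no bacterial counterpart. Mrpl51 (chr6:125192200-125194392, plus strand) measured 13.3, 13.7 and 14.8 RPKM in Ctrl and 18.8, 18.7 and 18.9 RPKM in NICeCA libraries. The groups were well apart, at 14 ± 0.789 and 18.8 ± 0.118 RPKM (SD, n = 3), and the log2 fold change was 0.40 (SE 0.11, limma adjusted p = 0.0468). Mrpl46 (chr7:78775341-78783089, minus strand) measured 6.42, 6.86 and 7.45 RPKM in Ctrl and 12.2, 9.22 and 9.39 RPKM in NICeCA libraries, with NICeCA replicate 1 standing above the rest. Its log2 fold change of 0.50 (SE 0.14) passed the threshold narrowly (limma adjusted p = 0.0497). Both calls were lost when Ctrl replicate 1, Ctrl replicate 2, NICeCA replicate 1 or NICeCA replicate 2 was left out, each time with 0 MRP genes called. Without Ctrl replicate 3 the calls were Mrpl33, Mrpl51 and Mrpl52, and without NICeCA replicate 3 Mrps18c alone.

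**Figure D2:**
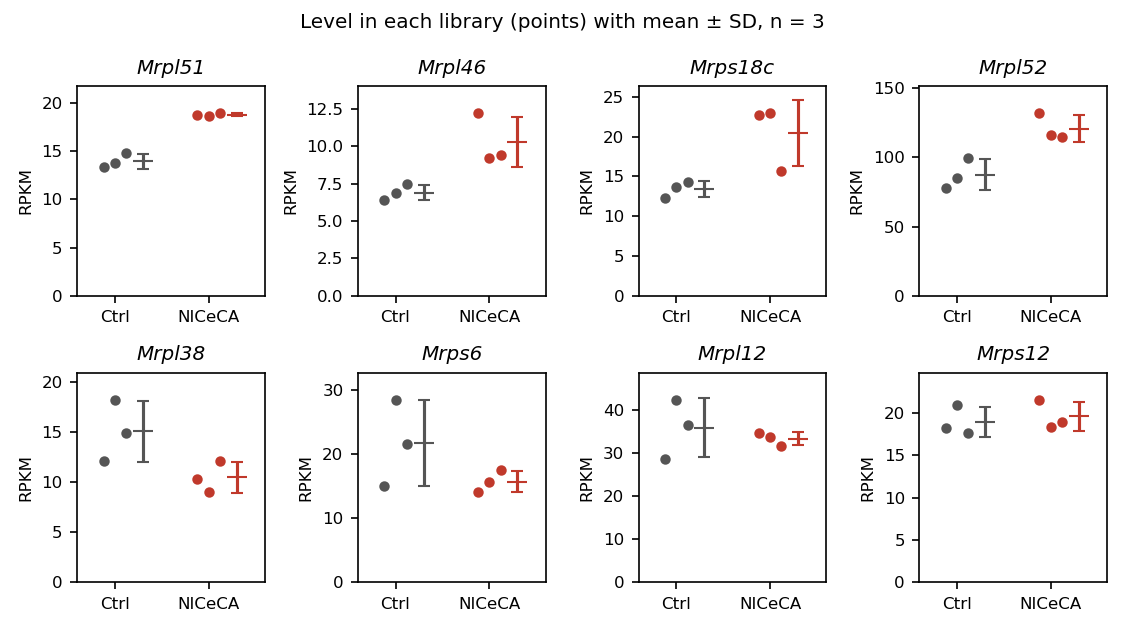
Level of 8 MRP genes in RPKM (vertical axes, starting at 0) for the 3 Ctrl libraries (gray) and the 3 NICeCA libraries (red); points are replicates 1 to 3 from left to right, and the bar beside them is mean ± SD. Mrpl51, Mrpl46, Mrps18c and Mrpl52 are separated between the groups with NICeCA above, Mrpl38 with NICeCA below, and Mrps6, Mrpl12 and Mrps12 overlap.

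Further genes of the large subunit came near the threshold without passing it. Mrpl52 had a log2 fold change of 0.47 (SE 0.14, limma adjusted p = 0.0609) and Mrpl33 one of 0.45 (SE 0.16, limma adjusted p = 0.0940). Mrpl39, found only in mitochondria, measured 4.47, 4.90 and 6.38 RPKM in Ctrl and 7.02, 6.66 and 9.03 RPKM in NICeCA libraries, a log2 fold change of 0.46 (limma adjusted p = 0.0906) between groups that did not overlap. Mrpl20 (35.3, 38.6 and 37.2 against 53.6, 46.5 and 42.0 RPKM) and Mrpl30 (29.1, 31.3 and 32.1 against 42.9, 38.5 and 34.1 RPKM) were also separated, at log2 fold changes of 0.34 and 0.31. They lay farther from the threshold (limma adjusted p = 0.108 and 0.132) and gave 0.04 and 0.02 with the length trend removed. In both, NICeCA replicate 1 was highest and NICeCA replicate 3 lowest of its group.

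Of the low-level members of this subunit, Mrpl1, which builds the L1 stalk at the exit of used transfer RNA, was separated as well (1.84, 1.79 and 2.20 against 2.61, 2.41 and 2.22 RPKM, log2 fold change 0.21), as was Mrpl35 (1.96, 2.83 and 2.84 against 3.06, 3.63 and 3.05 RPKM, 0.27). Mrpl47 gave -0.03 on the log2 scale, but 0.11 after quantile normalization and 0.01 after trimmed-mean scaling. Mrpl19 gave -0.20, and its row overlaps Gcfc2 on the opposite strand, so that they may share reads. Mrpl12 and Mrpl10 form the stalk on which translation factors are loaded. Mrpl12 measured 28.8, 42.5 and 36.6 RPKM in Ctrl and 34.8, 33.9 and 31.7 RPKM in NICeCA libraries, and Mrpl10 12.8, 16.0 and 15.8 against 15.4, 11.6 and 14.7 RPKM. The 3 NICeCA values of Mrpl12 lay between the lowest and the second Ctrl value in order, and its log2 fold change was -0.08 ± 0.16 (SE). That of Mrpl10 was -0.09 ± 0.15 (SE), and neither differed beyond the spread of the libraries.

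Mrpl38 ran the other way. It measured 12.2, 18.2 and 15.0 RPKM in Ctrl and 10.3, 9.05 and 12.1 RPKM in NICeCA libraries, with the highest NICeCA library just below the lowest Ctrl library. Its log2 fold change of -0.48 (SE 0.17) was the most negative of the 76 and did not pass (limma adjusted p = 0.0930). Mrpl37, named after its values were seen, was separated in the same direction (10.1, 12.5 and 10.5 against 8.63, 9.28 and 9.26 RPKM).

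In the small subunit, 0 of 26 genes were called by limma in either direction. An unadjusted p under 0.05 was reached by 4, all higher, against 14.4% of all tested genes. Mrps18c had the largest positive log2 fold change of all 76 genes. It measured 12.3, 13.7 and 14.4 RPKM in Ctrl and 22.7, 22.9 and 15.7 RPKM in NICeCA libraries, so that NICeCA replicates 1 and 2 stood far above the Ctrl group and NICeCA replicate 3 only just. The log2 fold change was 0.55 (SE 0.17, limma adjusted p = 0.0606).

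Mammals have 3 relatives of the bacterial protein S18, of which Mrps18c takes the bacterial place in the small subunit. Mrps18b, also of the small subunit, measured 11.2, 19.6 and 16.8 RPKM in Ctrl and 13.2, 12 and 15.6 RPKM in NICeCA libraries (log2 fold change -0.18, SE 0.20). Mrps18a of the large subunit measured 18.5, 25.6 and 20.2 against 20.6, 18.7 and 19.9 RPKM (-0.10, SE 0.14). Both overlapped between the groups. Whether the 3 paralogs differ from each other in their response was not tested.

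Mrps6, Mrps2 and Mrps15 gave the most negative values of the small subunit. Mrps6 measured 15.0, 28.4 and 21.6 RPKM in Ctrl and 14.1, 15.6 and 17.5 RPKM in NICeCA libraries (log2 fold change -0.40, SE 0.22). The Ctrl group was wide, and its replicate 1 lay inside the NICeCA range. Mrps2 (4.56, 6.76 and 6.52 against 4.07, 4.56 and 5.08 RPKM, -0.31) also overlapped, whereas Mrps15 (12.2, 14.9 and 14.8 against 12.2, 10.6 and 11.7 RPKM, -0.26) was separated by a narrow margin. The span of the Mrps6 row overlaps that of Slc5a3 on the same strand, so that they may share reads. Mrps12, which sits at the decoding site, measured 18.2, 21.0 and 17.7 RPKM in Ctrl and 21.5, 18.3 and 18.9 RPKM in NICeCA libraries, and its log2 fold change of 0.05 (SE 0.13) was smaller than its error; quantile normalization gave -0.01.

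Of the 49 large subunit genes, 38 had a positive log2 fold change, with a median of 0.184. Of these 49, 19 (38.8%) were separated with NICeCA above and 2 (4.08%) with NICeCA below. Of the 26 small subunit genes, 14 were positive, 6 (23.1%) were separated above and 1 (3.85%) below, and the median was 0.011. Median row lengths of the large and small subunit genes were alike, at 1053 and 1060 bases. Over all tested genes 16.5% were separated above and 24.4% below, and over tested rows of 976 to 1454 bases 27.6% and 9.34%. Whether the subunits differ in their response was not tested. The summed RPKM of the large subunit over that of the small subunit was 2.19, 2.18 and 2.35 in Ctrl and 2.41, 2.47 and 2.43 in NICeCA libraries. Every NICeCA library had the higher ratio, and the few most abundant genes, Mrpl52 and Mrpl33 among them, weigh most in it. The sums were not corrected for the length trend. Mrpl52 and Mrpl33 have short rows, and their log2 fold changes of 0.47 and 0.45 became 0.04 and 0.03 after its removal. By descent, the 48 genes with a bacterial counterpart had 0 calls and a median of 0.142. The 27 found only in mitochondria had the 2 calls (7.41%, against 5.88% of all tested genes called higher) and a median of 0.060.

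Row length moved with these values. MRP rows had a median length of 1053 bases (407 to 6712), against 2733 bases over all tested genes, and the tested genes were divided by length into 10 classes of about equal number. Over all tested genes the median log2 fold change ran from 0.159 in the shortest class to -0.287 in the longest. Calls ran with it, from 10.2% higher and 2.43% lower in the shortest class to 0.974% and 22.6% in the longest. The 31 MRP genes of the shortest class had a median of 0.195 and the 23 of the next class one of 0.051, beside 0.159 and 0.099 for all genes of those classes. Of these MRP genes 35.5% and 26.1% were separated with NICeCA above, beside 32.8% and 27.6% of all genes of those classes. Across the 76 genes the log2 fold change and log2 row length had a Pearson r of -0.31, beside -0.21 over all tested genes. Both describe genes that share the same 6 libraries.

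Each library had its own slope on length. The median deviation of the shortest class of rows minus that of the longest was -0.24, -0.16 and -0.31 on the log2 scale in Ctrl and 0.35, 0.24 and 0.11 in NICeCA libraries, so that the groups were fully apart in it. When this trend was taken out of each library (lowess on log2 length), 1 MRP gene was called higher, against 4.76% of tested genes, and 0 lower, against 2.00%. The median of the MRP genes became -0.036, with 34 of 76 positive, beside -0.009 over all tested genes. The medians were 0.018 for the large and -0.100 for the small subunit. Across the 76 genes the Pearson r with log2 row length then became 0.33, beside 0.04 over all tested genes. Longer MRP rows thus tended to higher values once the trend was removed. The slope on length and the group cannot be told apart, because every library of a group deviated in the same direction.

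**Figure D3:**
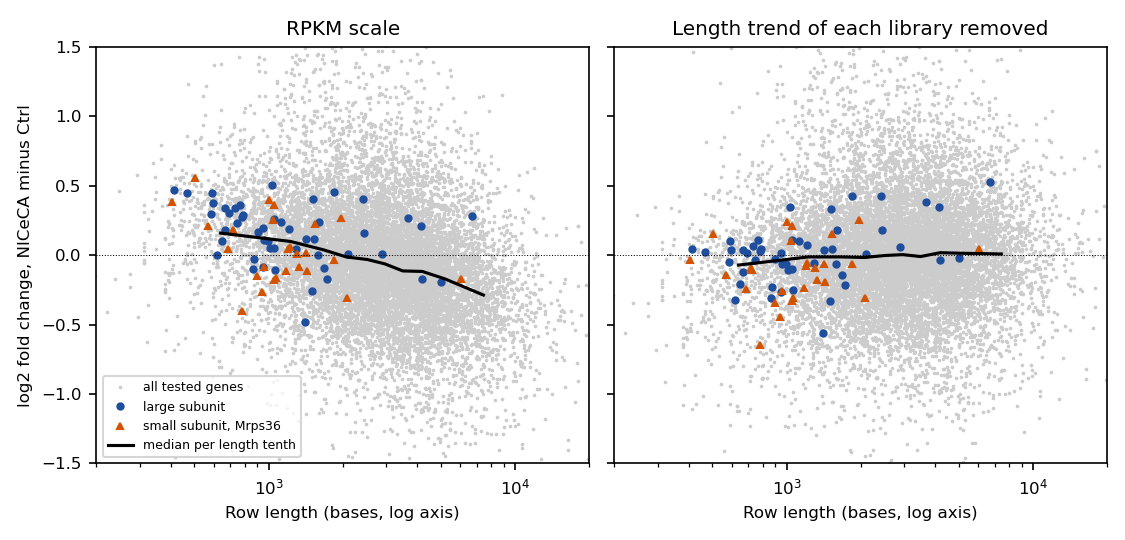
Log2 fold change (NICeCA minus Ctrl) against row length in bases (log axis) before and after the length trend of each library was removed; gray points are all tested genes, with those beyond -1.5 or 1.5 not drawn, blue circles and orange triangles are MRP genes, and the black line joins the medians of the 10 length classes. The line falls from 0.159 to -0.287 in the left panel and is nearly flat in the right one, where MRP genes lie on both sides of 0.

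The gene called after removal of the trend was Mrpl17, a large subunit protein of bacterial descent at the exit of the peptide tunnel, named here after its values were seen. It is the longest MRP row, at 6712 bases, and measured 3.93, 4.52 and 4.69 RPKM in Ctrl and 5.11, 5.48 and 6.07 RPKM in NICeCA libraries. Its log2 fold change was 0.28 on the RPKM scale (limma adjusted p = 0.137) and 0.53 with the trend removed (SE 0.10, limma adjusted p = 0.0323). That call remained without Ctrl replicate 3, whereas omission of each of the other 5 libraries left 0 MRP genes called. Mrpl51 kept 0.33 and Mrpl46 0.35 with the trend removed (limma adjusted p = 0.0659 and 0.101), whereas the shortest rows moved most, Mrps21 from 0.39 to -0.04, Mrpl52 from 0.47 to 0.04 and Mrps18c from 0.55 to 0.16. The negative values of Mrpl38 and Mrps15 grew to -0.56 and -0.44 (limma adjusted p = 0.0685 and 0.0517), and Mrps12 turned to -0.25.

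Among the libraries, Ctrl replicate 1 stood lowest. The mean of log2(RPKM + 1) over the 76 genes was 3.73, 3.98 and 3.92 in Ctrl and 4.06, 3.96 and 3.95 in NICeCA libraries. Ctrl replicate 1 was the lowest library for 49 of the 76 genes, NICeCA replicate 1 the highest for 33 and Ctrl replicate 2 for 25. Without Ctrl replicate 1 the median log2 fold change was 0.052, with 44 of 76 positive, and without Ctrl replicate 2 it was 0.171. With the length trend removed, the mean deviation of the 76 genes was -0.066, 0.108 and 0.007 in Ctrl and 0.014, -0.030 and -0.033 in NICeCA libraries, so that the NICeCA libraries lay within the Ctrl range. Ctrl replicate 1 also had the highest sum of macrophage markers (10138 RPKM) and of the endothelial markers among the Ctrl libraries (1080 RPKM), and Ctrl replicate 2 the highest share of Rn45s ribosomal RNA, with 6.40% of RefSeq reads beside 0.825% to 3.86% in the others. The part of these in the MRP values was not tested.

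Many MRP genes lie head to head with a neighbour on the opposite strand. Another RefSeq row started within 500 bases upstream on the other strand for 22 of the 76 genes (28.9%), against 11.9% of all tested rows, with gaps of 8 to 374 bases. The stretches between the starts of 3 such pairs and the bases before 3 genes of the comparison are printed here from RefSeq (GRCm38.p6, plus strand, 5′ to 3′) because both genes of a pair share them. Capitals mark the ETS core CCGGAAG and its reverse complement CTTCCGG, a core of the sites bound by ETS factors such as GABP.
Mrpl46 and Mrps11, chr7:78783090-78783130: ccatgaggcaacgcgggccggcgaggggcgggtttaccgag
Mrpl43 and Peo1, chr19:45006443-45006557: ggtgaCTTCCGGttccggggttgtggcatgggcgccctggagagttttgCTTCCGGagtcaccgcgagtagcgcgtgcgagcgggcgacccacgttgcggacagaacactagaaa
Mrps12 and Sars2, chr7:28741822-28741967: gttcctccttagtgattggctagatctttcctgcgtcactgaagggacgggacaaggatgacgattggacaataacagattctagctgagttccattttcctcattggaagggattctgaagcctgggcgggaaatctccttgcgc
Mrpl51, chr6:125192100-125192199: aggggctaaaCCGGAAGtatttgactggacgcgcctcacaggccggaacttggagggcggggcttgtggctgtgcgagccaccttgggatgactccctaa
Mrpl52, chr14:54426809-54426908: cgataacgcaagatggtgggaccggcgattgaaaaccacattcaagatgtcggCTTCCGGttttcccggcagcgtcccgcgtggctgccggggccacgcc
Mrps18c, chr5:100798601-100798758: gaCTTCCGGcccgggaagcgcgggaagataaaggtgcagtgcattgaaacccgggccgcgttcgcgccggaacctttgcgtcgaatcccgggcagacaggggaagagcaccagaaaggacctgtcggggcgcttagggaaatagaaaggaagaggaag

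The stretch between Mrpl46 and Mrps11 is 41 bases long, holds no ETS core and joins a gene of each subunit. Mrps11, found by its position, measured 8.59, 9.51 and 8.78 RPKM in Ctrl and 12.3, 10.6 and 9.84 RPKM in NICeCA libraries. Both genes were thus separated with NICeCA above, at log2 fold changes of 0.50 and 0.26 (limma adjusted p = 0.0497 and 0.176). The stretch between Mrpl43 and Peo1, the gene of the mitochondrial helicase Twinkle, holds 2 ETS cores. Mrpl43 measured 24.1, 27.1 and 25.9 against 32.1, 28.5 and 27.6 RPKM, a log2 fold change of 0.19. Peo1 measured 4.19, 6.45 and 5.12 against 2.69, 2.28 and 3.80 RPKM, a log2 fold change of -0.67 (SE 0.19, limma adjusted p = 0.0526). The groups of both genes were separated, in opposite directions. Their rows differ in length, at 1213 and 3488 bases, and with the length trend removed the values were 0.07 and -0.57. The Mrpl43 row overlaps Snora19 on the same strand, so that they may share reads.

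Mrps12 shares its upstream stretch, with 3 CCAAT boxes (CCAAT or ATTGG) and no ETS core, with Sars2, which encodes the mitochondrial seryl-tRNA synthetase. The stretch ends at the Mrps12 start of the current annotation, which lies nearer to Sars2 than that of the deposited table. Sars2 measured 3.45, 5.29 and 3.48 against 2.73, 2.60 and 3.51 RPKM (log2 fold change -0.35, limma adjusted p = 0.192), with overlap. Behind Mrps18c lies Helq, a DNA helicase gene 159 bases away, whose NICeCA libraries were all below the Ctrl libraries (log2 fold change -0.47, limma adjusted p = 0.0733) while those of Mrps18c were all above.

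Of the 22 neighbours 21 were tested, and 12 of these had a log2 fold change of the opposite sign to that of their MRP gene, with Mrpl46 and Mrps11 counted once for each gene. The median was -0.143 for the neighbours and 0.108 for their MRP genes. The median row lengths differed too, at 2228 and 959 bases, and with the length trend removed the medians were -0.086 and 0.007 and 9 pairs had opposite signs. Of the 21 tested neighbours 5 were called, where 5.88% of all tested genes were called higher and 7.68% lower. Called neighbours were Psma2, a proteasome subunit beside Mrpl32 (log2 fold change 0.66, limma adjusted p = 0.0361), Mrpl46 itself, and, with lower levels, Gga3 beside Mrps7 (-0.66, 0.0323), Tmem63b beside Mrpl14 (-0.60, 0.0441) and the histone chaperone Hira beside Mrpl40 (-0.58, 0.0440).

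**Figure D4:**
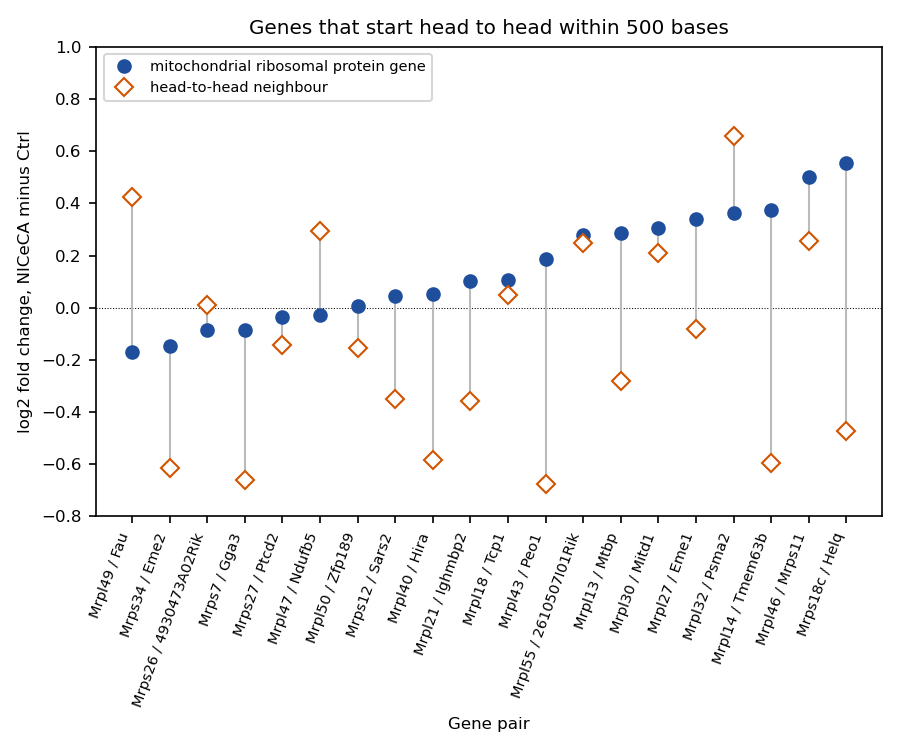
Log2 fold change (NICeCA minus Ctrl, vertical axis) of MRP genes (filled circles) and of their head-to-head neighbours (open diamonds) for the 20 distinct tested pairs, ordered by the value of the MRP gene. The MRP values run from -0.17 to 0.55, and several neighbours, among them Peo1, Tmem63b and Helq, lie below 0 while their MRP gene lies above.

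RefSeq promoter windows of 250 bases before to 50 after the start were at hand for 67 of the 76 genes (88.2%). Counting both strands, the ETS core CCGGAAG was in 34.3% of them, against 8.86% of all 32851 windows and 19.4% of the 9564 windows of tested genes (77.6% of tested genes had one). The core AAGATGGC of the factor YY1 was in 17.9%, against 2.75% and 4.88%, and the core GCATGCGC of NRF1, a regulator of nuclear genes for mitochondrial proteins, in 11.9%, against 2.71% and 5.52%. CCAAT was in 40.3% (37.4% and 38.6%), the core TGGGAA of RBPJ, the DNA-binding partner of the Notch intracellular domain, in 28.4% (25.6% and 22.8%), and the E-box CACGTG, bound by MYC among others, in 7.46% (7.15% and 10.2%). These matches describe letters in a window and not binding. The RNA of Nrf1 (6.23, 7.67 and 6.70 against 6.69, 6.25 and 6.57 RPKM) and of Gabpa, the DNA-binding subunit of GABP (8.88, 9.10 and 11.7 against 9.49, 10.4 and 9.60 RPKM), overlapped between the groups, at log2 fold changes of -0.06 (SE 0.12) and -0.00081 (SE 0.13); both values were positive after quantile normalization (0.05 and 0.07), and Gabpa was also positive after trimmed-mean scaling (0.04).

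Mitoribosome proteins that carry other names gave 1 call, higher, among 6 (16.7%), against 5.88% of all tested genes. Chchd1, a small subunit protein, measured 20.1, 19.2 and 22.7 RPKM in Ctrl and 29.2, 32.4 and 27.9 RPKM in NICeCA libraries, and rose by 0.51 on the log2 scale (SE 0.12, limma adjusted p = 0.0400). With the length trend removed it gave 0.17 (limma adjusted p = 0.311). Its row is short, at 595 bases. Dap3, a small subunit protein that binds GTP, measured 5.61, 7.73 and 6.29 against 7.06, 5.35 and 6.25 RPKM (log2 fold change -0.06, SE 0.15; 0.05 after quantile normalization), and its NICeCA values lay within the Ctrl range except the lowest.

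Next to its proteins, the mitochondrial ribosome needs factors, assembly proteins, charged transfer RNAs and ribosomal RNA. Of 17 translation factors 0 were called by limma, and the median log2 fold change was -0.100. At an unadjusted p under 0.05, 1 was higher and 3 lower, against 14.4% and 21.1% of all tested genes. Tufm, the elongation factor that brings transfer RNA to the ribosome, measured 20.1, 24.0 and 24.3 against 24.0, 19.0 and 21.6 RPKM (-0.08, SE 0.14). The median of 25 genes of assembly and ribosomal RNA processing was -0.111, and 1 (4%) was called lower, against 7.68% of all tested genes. This was Wbscr16, an assembly factor, with 8.66, 12 and 8.42 RPKM in Ctrl and 5.97, 5.74 and 6.73 RPKM in NICeCA libraries (-0.57, SE 0.15, limma adjusted p = 0.0476).

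A list of 22 genes that charge mitochondrial transfer RNAs with amino acids held 19 aminoacyl-tRNA synthetases and the amidotransferase subunits Gatc, Pet112 and Qrsl1, which complete the charging of the glutamine transfer RNA. Of the 19 synthetases, 18 had a negative log2 fold change. Of these 19, 2 (10.5%) were called lower, against 7.68% of all tested genes. The median of the synthetases was -0.293 (-0.221 with the length trend removed). In 9 of them (47.4%) all NICeCA libraries lay below all Ctrl libraries, against 24.4% of tested genes and 24.8% of genes in the length class that holds their median length. Gars and Kars, which also serve the cytosol, were not among the 9, and without them the median of the other 17 was -0.296. Of the amidotransferase subunits, Gatc was separated with NICeCA below (-0.52, limma adjusted p = 0.0853), and Pet112 (-0.21) and Qrsl1 (0.06) overlapped. Vars2, the valyl-tRNA synthetase, fell from 6.23, 8.84 and 5.44 RPKM in Ctrl to 2.94, 2.60 and 4.14 RPKM in NICeCA libraries (-0.88, SE 0.20, limma adjusted p = 0.0354). Lars2, the leucyl-tRNA synthetase, fell from 1.72, 2.23 and 1.96 to 0.805, 0.963 and 1.27 RPKM (-0.57, SE 0.15, limma adjusted p = 0.0461). The median row length of the 19 synthetases was 3062 bases, and whether they differ from the MRP genes in their response was not tested.

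Of 15 genes of mitochondrial transcription and genome upkeep 3 (20%) were called lower, against 7.68% of all tested genes. Polrmt, the mitochondrial RNA polymerase that makes the ribosomal RNAs, measured 7.2, 9.18 and 6.71 RPKM in Ctrl and 5.01, 3.83 and 4.84 RPKM in NICeCA libraries (-0.64, SE 0.15, limma adjusted p = 0.0381). Pprc1 and Ppargc1b, coactivators of the PGC-1 family that act on nuclear genes for mitochondrial proteins, measured 9.65, 18.8 and 11.5 against 3.0, 5.10 and 6.33 RPKM (-1.29, SE 0.28, limma adjusted p = 0.0337) and 1.47, 1.85 and 1.79 against 0.719, 0.643 and 0.764 RPKM (-0.66, SE 0.14, limma adjusted p = 0.0310). In all 3 the groups were separated. Tfam, which packs the mitochondrial genome, overlapped at 3.77, 4.04 and 4.08 against 3.98, 4.08 and 4.45 RPKM (0.06, SE 0.11). With the length trend removed most of these values kept most of their size, at -1.11 for Pprc1, -0.74 for Vars2, -0.55 for Wbscr16, -0.53 for Polrmt and -0.44 for Lars2 (limma adjusted p = 0.0563, 0.0658, 0.0632, 0.0703 and 0.0810), whereas Chchd1 went from 0.51 to 0.17. Of the 7 calls in the 5 lists, Ppargc1b alone passed the threshold there (-0.55, limma adjusted p = 0.0458), and 3 genes of these lists were called without Ctrl replicate 1 and 0 without Ctrl replicate 2, NICeCA replicate 1 or NICeCA replicate 2.

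**Figure D5:**
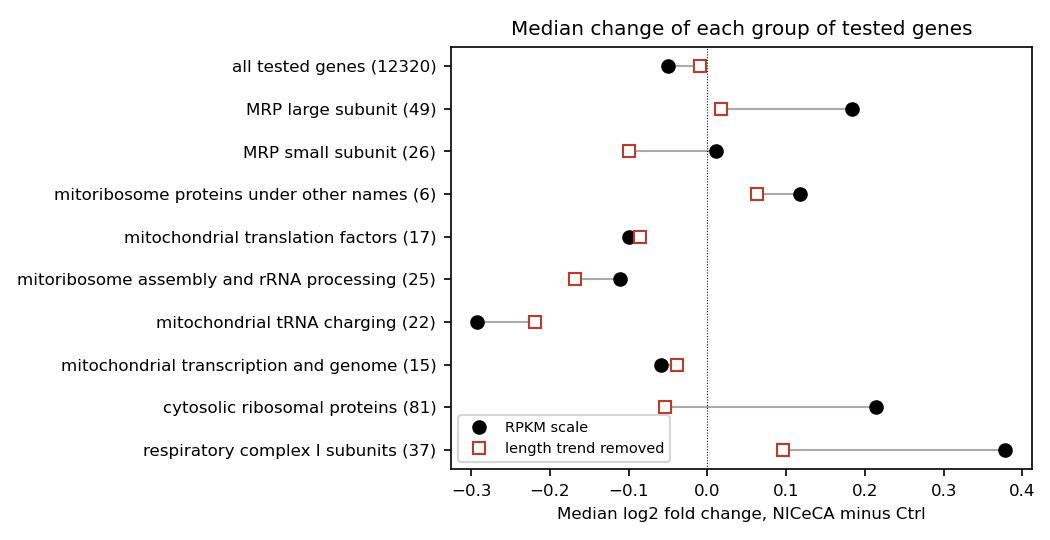
Median log2 fold change (NICeCA minus Ctrl, horizontal axis) of the tested genes of each group, with their number in parentheses; filled circles are on the RPKM scale and open squares after removal of the length trend. The large subunit moves from 0.184 to 0.018 and the cytosolic ribosomal proteins from 0.215 to -0.053, while the 22 genes of transfer RNA charging stay at -0.292 and -0.219.

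The MRP genes can be set beside the proteins of the cytosolic ribosome and the subunits of respiratory complex I, some of whose subunits the mitochondrial ribosome makes. Of 81 cytosolic ribosomal protein genes 0 were called by limma, and 19 had an unadjusted p under 0.05, all higher, against 14.4% of all tested genes. Of the 81, 42 (51.9%) were separated with NICeCA above. The median log2 fold change of the 81 was 0.215 at a median row length of 703 bases. Of 37 nuclear complex I genes 5 were called higher and 27 (73.0%) were separated above, with a median of 0.378 at 651 bases. Over all tested genes 5.88% were called higher and 16.5% separated above, and in the shortest length class, which holds both median lengths, 10.2% and 32.8%. With the length trend removed the medians were -0.053 and 0.097, beside -0.036 for the MRP genes, and 0 genes of either group were called.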

How the data were processed

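Bulk RNA-seq of 3 Ctrl and 3 NICeCA libraries was analysed. The authors deposited RPKM values per library for 56826 rows, 23473 with RefSeq names and 33353 FANTOM3 models, the latter not used here. The submitters' processing notes name TopHat2 and mm9, yet the positions of all 76 MRP rows overlap the gene of the same symbol in GRCm38.p6. The sources used here give neither the counting tool nor the use of strand, so overlapping genes (10 MRP rows overlap another row) may share reads. The study's methods give day 14 after inoculation, whereas the labels mention different days.

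RefSeq rows with a mean of at least 1 RPKM (12320) were compared two-sided on log2(RPKM + 1) by the lmFit and eBayes functions of limma 3.58.1 (R 4.3.3, trend option on) with Benjamini-Hochberg adjustment. Fold changes are on that scale and understate changes of low genes. The length trend was removed by lowess (span 0.3) per library. Reads recovered from RPKM and row length were whole within 0.05 for 100% of non-zero rows under 1000 reads, so depth is known. The procedure was tested on simulated data with changes larger than those of the MRP genes, so that test does not cover changes of their size.

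The MRP genes and lists were chosen with earlier results of these data known. Named genes were those called, the 6 highest and 4 lowest in level, the 4 most positive and 4 most negative, the S18 relatives, stalk and decoding genes, and, of other lists, called genes, Dap3, Tufm, Tfam, Nrf1 and Gabpa, with exceptions said in the text. Each library is labelled as its own sample; p-values measure the spread between these samples. Alternatives were other scalings, filters, pseudocount and variance model, limma voom on recovered reads, the replicate block, and each library left out, also (added after seeing the data) with the length trend removed.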

Additional observations from a re-analysis of the deposited data

How the results depend on the processing

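With 3 libraries a group, single calls rested on few libraries. The count of MRP genes called lower was 0 under every alternative run, and that called higher was 2 when means under 5 RPKM were left out and with a pseudocount of 0.1, 5 by trimmed mean of log ratios, 1 by quantile normalization, and 0 without a filter, without the limma trend and by voom on recovered reads (15 MRP genes at an unadjusted p under 0.05, lowest adjusted p = 0.0512). Leaving out 1 library gave 0 to 3. With the length trend removed it was 1, and 0 to 1 when 1 library was also left out. The median log2 fold change was 0.094 to 0.162 under other scalings, filters, pseudocount and voom, 0.052 to 0.171 with 1 library left out, -0.036 with the length trend removed, and, with 1 library also left out, -0.063, 0.0012 and -0.042 without Ctrl replicates 1, 2 and 3 and -0.067, -0.014 and -0.0098 without NICeCA replicates 1, 2 and 3. The 7 calls among the other translation genes became 11 by voom, 0 by quantile normalization and 0 without a filter, 0 to 8 with 1 library left out, 1 with the length trend removed, and 0 to 4 with 1 library also left out. The cause of these moves was not tested.

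The methods speak of 3 pairs of mice without saying which libraries form a pair. The replicate numbers were not seen to pair the libraries: deviations of same-numbered libraries correlated at 0.12, -0.34 and -0.18. Those of differently numbered libraries ran from -0.32 to 0.44, the latter for Ctrl replicate 2 with NICeCA replicate 3. A fit by the actual pairs could thus not be run, and the replicate block does not stand for one. With the replicate block 0 MRP genes and 1 other translation gene were called, and with block and length trend removed 0 MRP genes (median -0.036) and 0 others.

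Signs turned in small values. With the length trend removed, with or without the replicate block, Mrps21 became -0.037, Mrps12 -0.25, Dap3 0.097, Nrf1 0.12 and Gabpa 0.17. Quantile normalization gave Mrpl47 0.11, Mrps12 -0.014, Dap3 0.054, Nrf1 0.051 and Gabpa 0.068, and trimmed-mean scaling Mrpl47 0.012 and Gabpa 0.044. With 1 library left out, values ran from -0.232 to 0.0415 for Mrpl12, -0.0966 to 0.0792 for Mrpl47, -0.196 to 0.0277 for Mrps18a, -0.193 to 0.0230 for Mrpl10, -0.0206 to 0.118 for Mrps12, -0.151 to 0.0498 for Dap3, -0.165 to 0.00308 for Tufm, -0.123 to 0.00787 for Nrf1 and -0.0671 to 0.116 for Gabpa.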
